A study of Mus musculus with 12 samples.

Results

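Voltage-gated sodium channels open when the membrane of a neuron is depolarised, and the sodium that enters produces the rising phase of the action potential. Each channel consists of a large alpha subunit, which forms the pore and the voltage sensor, and smaller beta subunits, which alter gating and placement in the membrane. Sensory neurons of the dorsal root ganglion (DRG) combine alpha subunits that the puffer fish toxin tetrodotoxin (TTX) blocks with others that resist it, and the TTX-resistant subunits are best known from nociceptors, the neurons that report painful stimuli. The transcripts of 9 such genes were followed here in mouse DRG: 5 TTX-sensitive alpha subunits (Scn1a, Scn2a, Scn3a, Scn8a and Scn9a), both TTX-resistant alpha subunits of sensory neurons (Scn10a and Scn11a) and 2 beta subunits (Scn2b and Scn4b). They were taken by symbol from a table of 49315 genes, each symbol matched 1 gene, and all 9 were among the 18295 genes that passed the filter on low counts.

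Bulk mRNA sequencing was performed on DRG of 12 mice aged 10 months, with 8 ganglia of a mouse pooled into 1 library. In 6 mice, Postn-Cre(+) was combined with Nf2 flox/flox (Nf2 mice, n = 6), and the other 6 carried Fak1 flox/flox in addition to both (double knockout mice, DKO, n = 6). Fak1 is annotated as Ptk2 and encodes focal adhesion kinase. All 12 mice therefore carried Postn-Cre and the floxed Nf2 alleles, and no mouse with intact Nf2 was analysed here. The Cre is expressed from the Periostin promoter in Schwann cells and their precursors, so the sodium channels were measured in a ganglion whose neurons are not the cells targeted for deletion. The study asked how the loss of Fak alters the schwannomas and the ganglia of Nf2-deficient mice, and 3 males and 3 females by label represented each genotype.

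The targeted genes and the other features of the libraries were examined once. Ptk2 had 70.0 ± 3.6 CPM (counts scaled to the same library total) in Nf2 mice against 64.0 ± 10.4 in DKO mice (mean ± SD, n = 6), a difference that did not pass the test (adjusted p = 0.529, edgeR), and the floxed Nf2 gene had 128 and 118 CPM. Library totals ranged from 21129191 to 41250329 counts. Pan-neuronal and nociceptor genes of DRG, such as those that encode peripherin, advillin and the heat-activated channel TRPV1, were present in every library. Mouse 702, labelled a male Nf2 mouse, had 496 CPM of Xist and 0.53 CPM of the Y-linked Ddx3y, within the ranges of the labelled females (428 to 637 CPM and 0.15 to 0.85 CPM). The comparisons by sex below therefore also state, without this mouse, whether any member passed the threshold.

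The coding sequences show the change that separates the blocked from the resistant channels. In the pore loop of the first of the 4 homologous domains, TTX-sensitive channels of neurons carry an aromatic residue that contributes to the binding of the toxin, and the resistant channels of sensory neurons carry serine at that position. The 33 coding bases around this codon, 5 codons on each side, are printed from the 5′ to the 3′ end for 6 of the alpha subunits, from GENCODE M21 transcripts on GRCm38, with the codon in capitals.
Scn2a: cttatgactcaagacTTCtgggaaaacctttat
Scn3a: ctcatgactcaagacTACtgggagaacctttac
Scn8a: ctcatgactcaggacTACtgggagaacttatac
Scn9a: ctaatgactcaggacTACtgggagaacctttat
Scn10a: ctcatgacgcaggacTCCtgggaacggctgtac
Scn11a: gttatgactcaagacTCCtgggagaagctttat
The codon was TTC or TAC, both for aromatic residues, in the 4 sensitive subunits printed and TCC, a serine codon, in Scn10a and Scn11a. It was codon 385 of Scn2a, 384 of Scn3a, 371 of Scn8a, 362 of Scn9a, 356 of Scn10a and 358 of Scn11a. Each stretch lay within 1 coding exon, on the minus strand at chr2:65521798-65521830 for Scn3a, chr2:66548986-66549018 for Scn9a, chr9:119666372-119666404 for Scn10a and chr9:119805665-119805697 for Scn11a. Those of Scn2a (chr2:65688421-65688453) and Scn8a (chr15:100971623-100971655) lay on the plus strand. The flanking triplets were shared to a large extent, and over the whole coding sequence the alpha subunits had 55.8% to 81.7% of aligned bases in common, the most in Scn1a and Scn2a and the least in the pairs of Scn11a with Scn2a and with Scn9a.

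The genes sit in groups on the chromosomes. Scn3a, Scn2a, Scn1a and Scn9a lie within 1.18 Mb of chromosome 2 (65457118 to 66634962). Scn10a and Scn11a are neighbours within 217 kb of chromosome 9 (119608456 to 119825456), and Scn2b and Scn4b are neighbours within 36.4 kb of the same chromosome (45117782 to 45154152). Scn8a lies alone on chromosome 15 (100869858 to 101045938), the chromosome of the floxed Ptk2, 27.4 Mb away from it. The similarity of the genes limits counting only in part. The members of the chromosome 2 group shared 139 to 529 identical stretches of 50 bases per pair, of 11331 in Scn1a to 13001 in Scn9a, Scn8a shared at most 6 with any other member, and Scn10a, Scn11a, Scn2b and Scn4b shared 0. Reads that match several genes were handled in a way not given in the sources used here, so the counts of Scn1a, Scn2a, Scn3a and Scn9a carry this uncertainty over a small part of their length. The exons of Scn9a overlapped an antisense gene by 180 bases, 1.41% of its exon length, and no exon of another member overlapped another gene.

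The level of each transcript was compared between genes as CPM per kb of annotated exon. Scn10a, which encodes Nav1.8, the channel that carries most of the action potential current in nociceptors, had the highest level at 94.7 ± 13.9 CPM per kb (mean ± SD, n = 12 mice). Scn4b, the subunit that is disulfide-linked to the alpha subunit and promotes resurgent current, followed at 70.5 ± 13.4, and Scn11a, which encodes Nav1.9, a channel of persistent current near the resting potential, at 65.0 ± 9.53. The ranges of these 3 genes overlapped. Scn10a exceeded Scn4b in 11 of 12 mice, whereas Scn4b exceeded Scn11a in 8 of 12. Those 8 were 3 of 6 Nf2 mice, in which the mean of Scn11a was the higher one (68.9 against 64.9 CPM per kb), and 5 of 6 DKO mice, in which the mean of Scn4b was (76.1 against 61.1).

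Scn9a, which encodes Nav1.7, the channel that amplifies small depolarisations and whose loss in humans abolishes pain, stood alone at 30.6 ± 3.66 CPM per kb. It was lower than Scn11a and higher than Scn8a in all 12 mice, without overlap. Scn8a (Nav1.6, the channel of nodes of Ranvier) had 11.7 ± 1.85, Scn2b 11.5 ± 1.26 and Scn1a (Nav1.1, found in large myelinated neurons) 11.1 ± 2.01 CPM per kb. Each of these exceeded the next in 7 of 12 mice, a sum of opposite orders in the genotypes by the length of annotated exon. Scn8a exceeded Scn2b in 1 of 6 Nf2 mice and in 6 of 6 DKO mice, and Scn2b exceeded Scn1a in 6 of 6 Nf2 mice and in 1 of 6 DKO mice. The means thus ran in the order Scn2b (11.9), Scn8a (10.2) and Scn1a (9.76) in Nf2 mice, and Scn8a (13.2), Scn1a (12.5) and Scn2b (11.1) in DKO mice. This change of order depends on the length used. The longest transcript has 11.44 kb against 15.77 kb of annotated exon in Scn8a, 8.39 against 11.15 kb in Scn1a and 4.66 against 4.66 kb in Scn2b. By the length of the longest transcript, the means ran in the order Scn8a, Scn1a and Scn2b in both genotypes.

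Scn2a and Scn3a formed the low end. Scn2a, which encodes Nav1.2, a channel of central axons, had 1.54 ± 0.21 CPM per kb, and Scn3a, which encodes Nav1.3, a channel of embryonic neurons that returns after nerve injury, had 0.60 ± 0.12. Neither overlapped a neighbour in the order. The mean level per kb of Scn10a was 158-fold that of Scn3a, and the lowest count of any member in any mouse was 151 reads, for Scn3a.

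**Figure D1:**
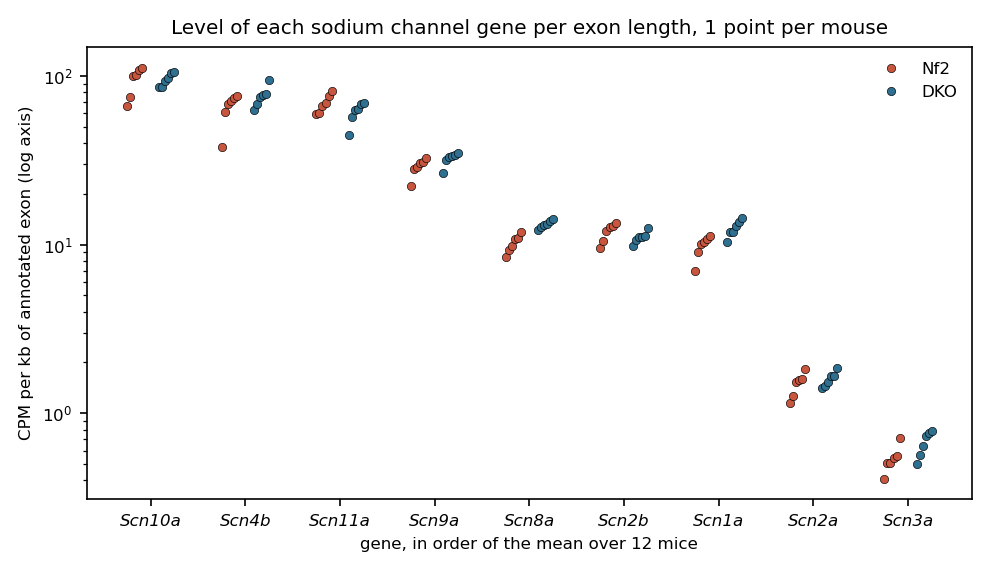
Level of the 9 genes in CPM per kb of annotated exon (log axis), 1 point per mouse, Nf2 mice in red and DKO mice in blue. Scn10a, Scn4b and Scn11a overlapped at the top, Scn8a, Scn2b and Scn1a overlapped near 11 CPM per kb, and Scn2a and Scn3a were the lowest.

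The genotypes were then compared gene by gene. In DKO against Nf2 mice, 0 of the 9 genes passed the adjusted threshold (edgeR quasi-likelihood test with Benjamini-Hochberg adjustment over 18295 genes), where 0.94% of all genes tested did (0.372% higher and 0.568% lower in DKO mice). At an unadjusted p under 0.05, 2 of the 9 were higher in DKO mice, Scn8a and Scn1a, and 0 were lower, against 6.91% of all genes higher and 7.96% lower, 14.9% in all. Without mouse 649, 2 were higher and 1, Scn2b, was lower, against 6.73% and 7.85% of all genes. DESeq2 and limma voom with sample quality weights each called 1 member, Scn8a, where they called 4.64% and 2.85% of all genes tested. The log2 fold changes ran from -0.19 (Scn11a) to 0.36 (Scn8a), 7 above 0 and 2 below, with a median of 0.15 beside 0.005 for all genes. In a bulk sample, fewer cells of a type and less RNA per cell cannot be told apart.

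Scn8a showed the clearest separation of the TTX-sensitive alpha subunits. Its level was lowest at 134, had a median of 162 and was highest at 188 CPM in Nf2 mice, and the corresponding values in DKO mice were 192, 208 and 224 CPM. Every DKO mouse was thus above every Nf2 mouse, with mouse 649 the lowest of the Nf2 mice and mouse 884 the highest. This was 1 of 9 members without overlap in CPM, where 1.95% of all genes did not overlap and 0.902% did so with DKO higher. The gap was narrow, and on the TMM scale, which corrects for the composition of each library, mouse 915 (DKO) at 187.8 CPM was just below mouse 884 (Nf2) at 188.1 CPM.

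The fitted difference of Scn8a was 0.36 ± 0.08 (log2 fold change ± SE), a 1.28-fold higher level in DKO mice. Its unadjusted p was 0.000505, rank 177 of 18295 genes, and its adjusted p of 0.0522 missed the threshold by a small margin. The call changed with the fit. Of 23 alternative fits, 6 placed the adjusted p below the threshold, among them DESeq2 (0.00228), limma voom with sample quality weights (0.0345), upper-quartile scaling (0.0358) and the fit without Nf2 mouse 884 (0.0378). The other 2 were the fit without scaling factors and the fit on genes with at least 1 CPM in 6 mice. All genes were called at rates of 0.995%, 0.907%, 1.15% and 0.601% under upper-quartile scaling, no scaling factors, that filter and the removal of mouse 884. The direction was the same in all 23, with log2 fold changes of 0.31 to 0.40 when each of the 12 mice was left out in turn. Within labelled females the log2 fold change was 0.39 (adjusted p = 0.243), and within labelled males it was 0.32 (adjusted p = 0.511) or, without mouse 702, 0.35 (adjusted p = 0.553).

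**Figure D2:**
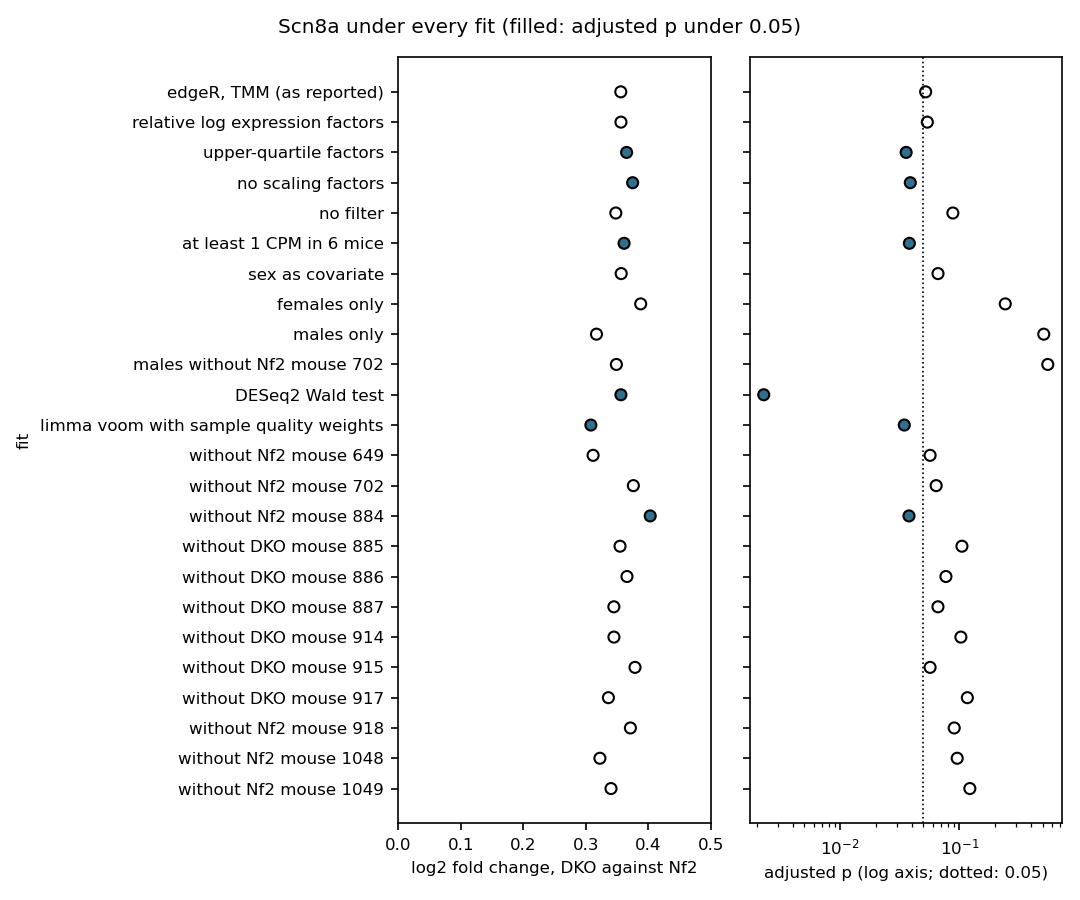
Log2 fold change of Scn8a in DKO against Nf2 mice (left) and its adjusted p (right, log axis) under the reported fit and 23 alternatives, filled where the adjusted p was under 0.05. All estimates lie between 0.31 and 0.40, and 6 of the 23 alternatives fall below the threshold.

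Scn1a had the second largest difference. It ranged from 77.9 to 125 CPM in Nf2 mice, with a median of 114, and from 116 to 159 CPM in DKO mice, with a median of 138. Of 6 DKO mice, 5 were above the highest Nf2 mouse, and mouse 887 was the exception. Scn1a thus had a log2 fold change of 0.34 ± 0.11, with an unadjusted p of 0.0071 and an adjusted p of 0.148 (edgeR). The lowest Nf2 value belonged to mouse 649, and without that mouse the log2 fold change was 0.26 (adjusted p = 0.138). Of the 23 alternatives, 0 called Scn1a, and DESeq2 came nearest among the other tools, with an adjusted p of 0.0636.

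Scn3a, the transcript of lowest level, ran from 5.11 to 8.91 CPM in Nf2 mice (median 6.58) and from 6.22 to 9.72 CPM in DKO mice (median 8.51). The genotypes overlapped widely, although 3 DKO mice lay above the highest Nf2 mouse, and a log2 fold change of 0.28 ± 0.14 did not pass the test (adjusted p = 0.389, edgeR). Scn9a ran from 284 to 416 CPM in Nf2 mice (median 378) and from 342 to 449 CPM in DKO mice (median 427). The highest Nf2 mouse was exceeded by 4 DKO mice, and the lowest mice of the 2 genotypes, 649 and 887, were well below the rest. The log2 fold change of 0.15 ± 0.09 did not pass the test (adjusted p = 0.474), and was 0.086 without mouse 649. Scn2a differed least among the sensitive subunits, at 14.6 to 23.2 CPM in Nf2 mice (median 19.9) and 17.9 to 23.5 CPM in DKO mice (median 20.3). The DKO mice lay almost wholly within the range of the Nf2 mice, with a log2 fold change of 0.08 ± 0.11 (adjusted p = 0.794), which was 0.010 without mouse 918 and 0.14 without mouse 1049.

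The TTX-resistant subunits did not pass the test in either direction. Scn10a ran from 530 to 895 CPM in Nf2 mice (median 804) and from 685 to 839 CPM in DKO mice (median 758). Its DKO values lay inside the range of the Nf2 mice, 2 of which, 649 and 1048, were far below the other 4. Its log2 fold change was 0.00 ± 0.12 (adjusted p = 0.996, edgeR), and its sign changed in 9 of the 23 alternatives. Scn11a ran from 353 to 487 CPM in Nf2 mice (median 402) and from 264 to 411 CPM in DKO mice (median 377). Of 6 DKO mice, 5 were below the Nf2 mean and DKO mouse 886 was below every other mouse, yet the log2 fold change of -0.19 ± 0.11 did not pass the test (adjusted p = 0.471), and was -0.11 without mouse 886.

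The beta subunits did not share a direction. Scn2b, whose product is disulfide-linked to alpha subunits and favours their surface expression, ran from 44.3 to 62.6 CPM in Nf2 mice (median 57.9) and from 45.5 to 58.1 CPM in DKO mice (median 51.7). The DKO mice lay within the range of the Nf2 mice, with a log2 fold change of -0.12 ± 0.08 (adjusted p = 0.550). Scn4b ran from 189 to 380 CPM in Nf2 mice (median 347) and from 314 to 473 CPM in DKO mice (median 379). Its lowest Nf2 mouse, 649, was far below the others, and its highest DKO mouse, 886, far above. Scn4b had a log2 fold change of 0.21 ± 0.15 (adjusted p = 0.553), which ran from 0.10 to 0.26 when each mouse was left out in turn.

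**Figure D3:**
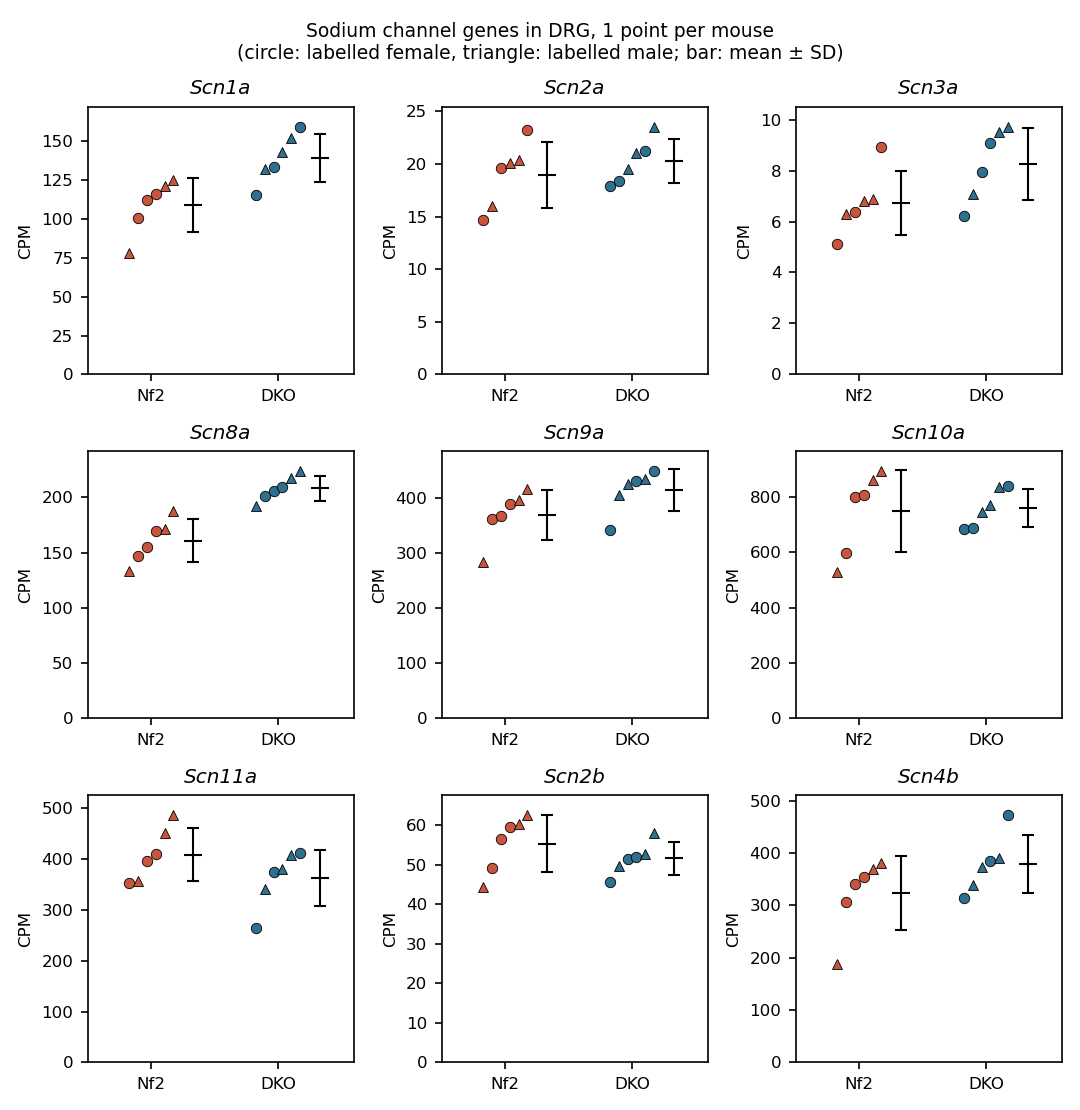
CPM of each of the 9 genes, 1 point per mouse (circles for labelled females, triangles for labelled males), with the mean and SD of each genotype (n = 6). Scn8a is the only panel in which all DKO mice lie above all Nf2 mice, and 0 of the 9 genes passed the adjusted threshold.

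Mouse 649 had the lowest CPM of all 12 mice for Scn1a, Scn8a, Scn9a, Scn10a, Scn2b and Scn4b, and other features of its library moved with these values. Genes with at least 8 kb of annotated exon, among them all 5 TTX-sensitive members, deviated by a median of -0.18 on the log2 scale in mouse 649, by -0.09 in Nf2 mouse 1048 and by -0.07 in DKO mouse 887, and by -0.01 to 0.08 in the other mice. Mitochondrial genes took 4.45% of the counts in mouse 649 and 5.60% in mouse 887, against 1.99% to 3.15% in the others. Not every list was low in mouse 649. Its pan-neuronal genes summed to 9538 CPM and its satellite glia genes to 7254 CPM, each the highest of the 12 mice. The 2739 long genes had a median log2 fold change of 0.06 in DKO mice, and 12.2% of them were higher and 4.78% lower at an unadjusted p under 0.05. Of these long genes, 6.83% had a larger log2 fold change than Scn8a and 7.59% a larger one than Scn1a. The part of transcript length and RNA quality in the differences of Scn8a and Scn1a was not tested, and without mouse 649 the log2 fold change of Scn8a was 0.31 (adjusted p = 0.0568).

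The mix of the 7 alpha subunits within a mouse was calculated as the share of each in their summed CPM per kb. Such shares add up to 100%, so that 1 subunit's share moves with those of the others. Scn10a held the same place in both genotypes, at 43.7% ± 2.67 in Nf2 mice against 44.0% ± 0.74 in DKO mice (SD, n = 6). Scn11a held 30.3% to 36.1% in Nf2 mice, against 22.8% to 31.3% in DKO mice and overlapped through DKO mouse 887. The TTX-resistant subunits together made up 73.2% to 77.2% in Nf2 mice (median 76.5%) and 66.9% to 74.2% in DKO mice (median 72.7%). The overlap came from Nf2 mouse 1048, the lowest of its genotype, which fell below DKO mice 885 and 887.

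Scn8a and Scn1a took larger shares in DKO mice without overlap, in 2 of the 7 alpha subunits. The share of Scn8a ran from 4.42% to 5.09% in Nf2 mice, against from 5.64% to 6.53% in DKO mice, and that of Scn1a from 4.20% to 4.90% and from 5.08% to 7.33%. When the CPM of every gene was divided by the same alpha subunit sum, 1.13% of all genes did not overlap between genotypes and 0.481% did so with DKO higher. The ratio of Scn8a to Scn11a, in CPM, was 0.353 to 0.417 in Nf2 mice, against 0.509 to 0.762 in DKO mice, and the ratio of Scn8a to Scn10a was 0.193 to 0.252 and 0.249 to 0.301. The former did not overlap and the latter did, by Nf2 mouse 649 and DKO mouse 885. Scn8a and Scn11a had the highest and the lowest log2 fold change of the members. The share of all genes without overlap in a ratio to Scn11a was not calculated. The ratio of Scn1a to Scn8a was alike, with a median of 0.685 in Nf2 mice against 0.659 in DKO mice and wide overlap. These shares were described without a test. The TTX-sensitive subunits have 11.15 to 15.77 kb of annotated exon, against 7.97 kb in Scn10a and 5.93 kb in Scn11a. The part of transcript length and RNA quality in the shares and ratios was not tested.

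**Figure D4:**
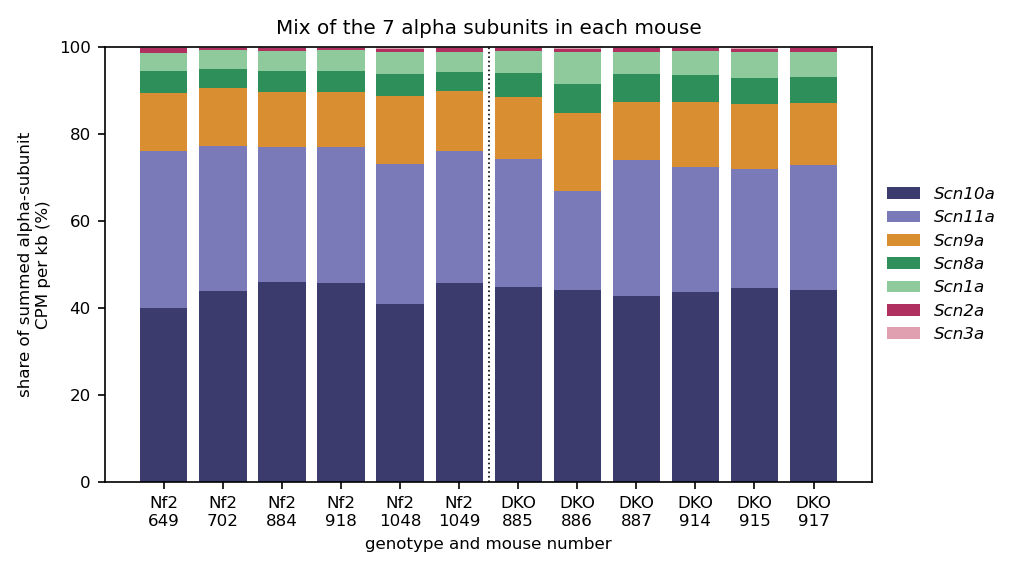
Share of each alpha subunit in the summed CPM per kb of the 7 alpha subunits (%), 1 bar per mouse, Nf2 mice left and DKO mice right of the dotted line. The TTX-resistant Scn10a and Scn11a together span 73.2% to 77.2% in Nf2 mice, against 66.9% to 74.2% in DKO mice, with DKO mouse 886 the lowest.

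The levels by sex were compared with genotype as a covariate. Mouse 702 was counted as a male by its label except where stated. Of the 9 genes, 0 passed the threshold in male against female mice by label, where 0.0164% of all genes did, and 0 had an unadjusted p under 0.05, where 2.91% did (edgeR). The log2 differences ran from -0.09 (Scn4b) to 0.13 (Scn11a), with unadjusted p from 0.262 to 0.887. Scn10a had a mean of 736 ± 93.9 CPM in 6 females and 773 ± 131 CPM in 6 males, or 755 CPM in 5 males without mouse 702. Scn11a had 368 ± 55.5 CPM in females and 403 ± 56.4 CPM in males, or 387 CPM without mouse 702, and 0 members passed the threshold without it. The dependence of the genotype difference on labelled sex passed the threshold for 0 of the 9 genes, where 0.0109% of all genes did, with interaction terms of -0.11 to 0.14 on the log2 scale and unadjusted p of 0.585 and above, where 4.78% of all genes were below 0.05 (edgeR), and 0 members passed without mouse 702.

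A further 4 sodium channel genes were examined in the same way. They were the skeletal muscle alpha subunit Scn4a, the atypical glial and neuronal channel Scn7a, the beta subunit Scn3b, and Nalcn, which encodes the sodium leak channel. Of these, 0 passed the threshold and 0 had an unadjusted p under 0.05, with a median log2 fold change of -0.02. Nalcn had the highest log2 fold change at 0.25 ± 0.14 (48.0 and 57.8 CPM, adjusted p = 0.429, edgeR), which was 0.14 without mouse 649. Scn7a had the lowest at -0.18 ± 0.13 (2051 and 1833 CPM, adjusted p = 0.555), which was -0.12 without mouse 702. The log2 fold changes of the others were -0.11 for Scn4a and 0.06 for Scn3b, and each of these changed sign in 2 of the 23 alternatives.

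Scn8a acts at nodes of Ranvier and axon initial segments, where scaffolds, adhesion molecules and potassium channels hold and balance it. Of the 11 partner genes reported here, 0 passed the threshold, whereas at an unadjusted p under 0.05, 6 were higher in DKO mice and 1 was lower, against 6.91% and 7.96% of all genes. Their median log2 fold change was 0.26. In a bulk sample, the cells that made the partner transcripts, neurons or glia, cannot be told apart. Mouse 649 had the lowest CPM of all 12 mice for 7 of the 11, and without it 6 were again higher and 1 lower, with a median of 0.20. The list was chosen with earlier results of these data known, so its counts are a description. Of the long genes above, 12.2% were higher and 4.78% lower at an unadjusted p under 0.05 (edgeR). The part of transcript length and RNA quality in this list was not tested. Nfasc, which encodes the adhesion molecule neurofascin and was named after its values were seen, had 206 ± 26.9 CPM in Nf2 mice against 268 ± 17.8 in DKO mice. Its genotypes did not overlap, where 1.95% of all genes did not and 0.902% did so with DKO higher. Its log2 fold change of 0.36 ± 0.08 had an adjusted p of 0.0603 (edgeR). Nfasc was called in 5 of the 23 alternatives, by DESeq2 (0.0032), limma voom with sample quality weights (0.0077), upper-quartile scaling (0.0496), the filter of at least 1 CPM in 6 mice (0.0446) and without mouse 649 (0.0231). The partner with the lower level was Ank3, which encodes ankyrin-G, the anchor of sodium channels at nodes, also named after its values were seen. It had 809 CPM in Nf2 mice against 687 in DKO mice, with a log2 fold change of -0.26 ± 0.08 (adjusted p = 0.160), and was called in 1 of the 23 alternatives, limma voom with sample quality weights (0.0495). Cntnap2, which encodes Caspr2 of the juxtaparanode and was likewise named after its values were seen, was called in 1 as well, by DESeq2 (0.0476). Of the 11 partners, 9 had a log2 fold change above 0 and 2 had one below 0. Of 8 genes whose products bind or turn over sodium channels, among them the fibroblast growth factor homologous factors and Nedd4l, 0 passed the threshold and 0 had an unadjusted p under 0.05, with a median of 0.04.

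**Figure D5:**
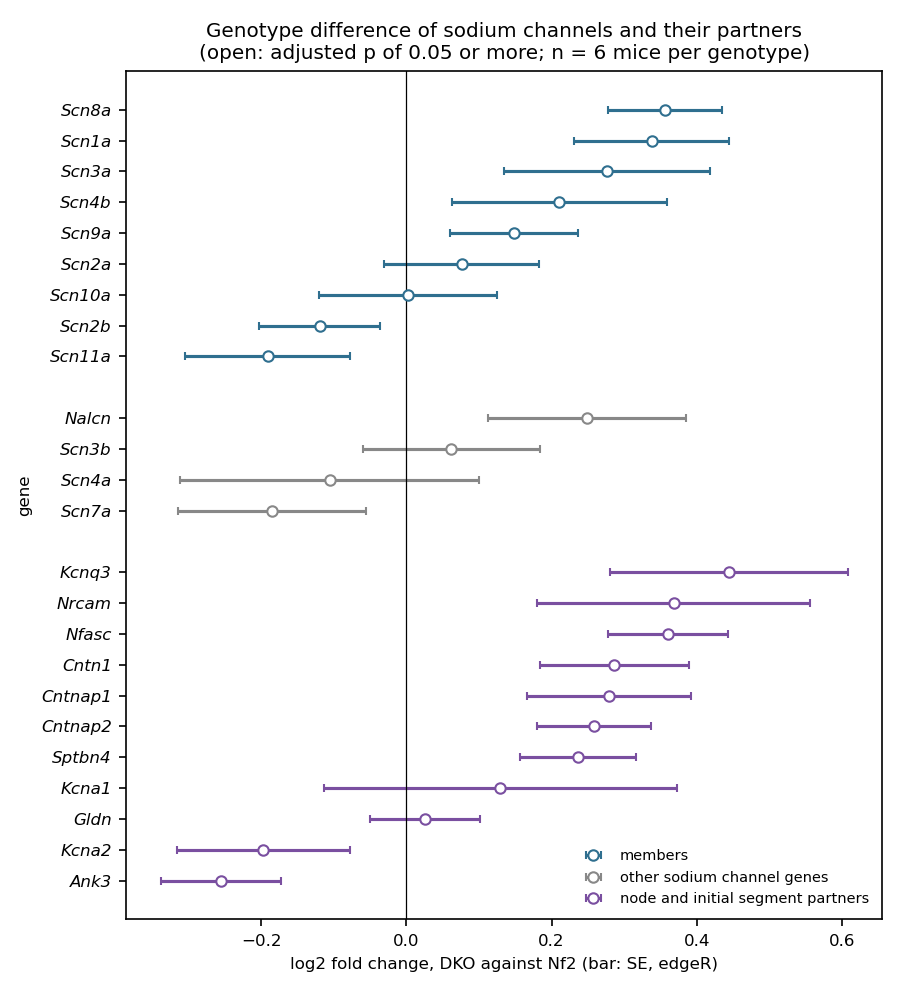
Log2 fold change in DKO against Nf2 mice with its SE (edgeR, n = 6 mice per genotype) for the 9 genes, 4 further sodium channel genes and 11 partners at nodes and initial segments, drawn open because 0 of those shown had an adjusted p under 0.05. Scn8a leads the 9 genes at 0.36, and Ank3 is the lowest partner at -0.26.

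Neuron types were set beside these values, in lists that were also chosen with earlier results of these data known. The rates over all genes tested were 0.94% past the threshold, and 6.91% higher and 7.96% lower in DKO mice at an unadjusted p under 0.05 (edgeR). Of 12 pan-neuronal genes, 0 passed the threshold and 0 had an unadjusted p under 0.05, with a median log2 fold change of -0.04. Of 12 nociceptor genes, 0 passed, 0 were higher and 1 was lower at an unadjusted p under 0.05, with a median of -0.01. Of 12 genes of large-diameter neurons, the type in which Scn1a and Scn8a are best known, 0 passed the threshold. At an unadjusted p under 0.05, 3 were higher, with a median of 0.08 over the list. Among the 3 was Cntnap2, which is also counted in the partner list above. Another was Ntrk3, the receptor of neurotrophin-3 in proprioceptors and mechanoreceptors, named after its values were seen. It had 233 ± 19.8 CPM in Nf2 mice against 293 ± 26.4 in DKO mice, with an adjusted p of 0.0654 (edgeR). Its genotypes did not overlap, where 1.95% of all genes did not and 0.902% did so with DKO higher. The neurofilament genes of the same list had log2 fold changes of 0.03 to 0.08, and Pvalb, the parvalbumin gene of proprioceptors, of -0.29 (adjusted p = 0.498).

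Markers of other cells in the sample were examined last, in lists chosen in the same way. Over all genes tested, 0.94% passed the threshold, and 6.91% were higher and 7.96% lower in DKO mice at an unadjusted p under 0.05 (edgeR). The median log2 fold change of all genes was 0.005. Of 10 skeletal muscle genes, 0 passed the threshold and 9 were lower in DKO mice at an unadjusted p under 0.05, with a median log2 fold change of -2.24. Their summed level ran from 13.4 to 1109 CPM in Nf2 mice, against from 20.9 to 354 CPM in DKO mice. Of 10 macrophage genes, 1 passed, the complement gene C1qb, which was lower in DKO mice (37.0 and 22.9 CPM, log2 fold change -0.71, adjusted p = 0.0138, edgeR). At an unadjusted p under 0.05, 7 of the 10 were lower, and the median of the list was -0.43. Of 12 spinal cord neuron genes, 8 were tested, 0 passed and 1 was higher at an unadjusted p under 0.05. The median of those tested was 0.57, and 0.013 to 0.85 when each mouse was left out in turn. Without Slc17a6, which sensory neurons also express, the genes of this list summed to 14.3 to 59.2 CPM in Nf2 mice, against 18.5 to 86.0 CPM in DKO mice. Of the 12, 4 were at 0 in at least 1 mouse. Of 10 oligodendrocyte and astrocyte genes, 9 were tested, 0 passed and 2 were higher at an unadjusted p under 0.05. The median of those tested was 0.55, and 0.12 to 0.80 when each mouse was left out in turn. The summed level of the list ran from 224 to 401 CPM in Nf2 mice and from 253 to 573 CPM in DKO mice. Of 12 Schwann cell genes and 7 satellite glia genes, 0 passed and 2 of each list were lower at an unadjusted p under 0.05, with medians of -0.01 and -0.14. Cdh19 is in both lists and was among the lower genes of each. Central neurons and large sensory neurons share Scn1a and Scn8a, and Scn2a encodes a channel of central axons. The part of these cells in the differences of the sodium channel genes was not tested.

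The members varied together to different degrees. Over the 12 mice, on the log2(TMM-scaled CPM + 1) scale, the closest pairs were Scn9a with Scn4b (Pearson r = 0.91, and 0.96 within Nf2 mice and 0.71 within DKO mice) and Scn1a with Scn9a (r = 0.90, 0.94 and 0.81). Both pairs were less close without mouse 649, at r = 0.76 and 0.78. Scn10a and Scn11a, the TTX-resistant neighbours, had r = 0.61, and 0.86 and 0.75 within the genotypes. Scn1a and Scn8a had r = 0.84 over all mice and 0.92 within Nf2 mice, but -0.15 within DKO mice, and Scn3a and Scn11a were opposed at r = -0.59. Scn8a spread less within DKO mice, where its SD was 5.45% of its mean CPM, than within Nf2 mice (12.1%). A narrow spread can lower r by itself. These values describe 12 libraries that also share depth and RNA quality, and carry no test.

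Among 11958 other genes, those whose levels followed each member most closely over the 12 mice were identified by the same measure, and nothing is implied by it on shared control. For the 2 closest genes of each member, Spearman's rho was 0.73 to 0.97, and r was 0.55 (Pik3ap1 with Scn11a) to 0.98 without the 2 mice farthest from the member's median. Of the TTX-sensitive subunits, Scn1a was followed most closely by Ttc39b (r = 0.99) and Hmbox1 (0.98), Scn8a by Ttc3 (0.98) and Rab3c (0.95), and Scn9a by Enpp5 (0.99) and Lrpap1 (0.99). Scn2a was followed by Nrsn2 and Tspoap1 (both 0.88), and without the 2 mice farthest from the median these fell to 0.63 and 0.65. Scn3a was followed by Arfip2 and Arxes2 (both 0.87). Of the resistant subunits, Scn10a was closest to Ret (0.94), which encodes the GDNF family receptor of nociceptors, and Erc1 (0.93), and Scn11a to A3galt2 (0.94) and Pik3ap1 (0.87). Scn2b was closest to Arhgap17 (0.93) and Cers5 (0.89), and Scn4b to Armt1 and Fam160b1 (both 0.97). The values of Ret with Scn10a were 0.98 within Nf2 mice and 0.92 within DKO mice, and those of Rab3c with Scn8a 0.95 and 0.56. The lower r of Rab3c within DKO mice came with the narrower spread of Scn8a there, and the part of that spread was not tested.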

How the data were processed

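Poly(A) RNA of DRG of 12 mice was sequenced, 1 library per mouse, and mice were the replicates. The deposited values were raw counts, whole numbers of reads per Ensembl gene without normalization. The submitters' processing notes name Trimmomatic 0.36, STAR 2.5.2b, featureCounts, Subread 1.5.2 and the GRCm38 genome. How strand and multiply matching reads were treated was not given in the sources used here, and counts per gene do not separate splice forms. Totals of 21129191 to 41250329 counts set the precision, and the spread between mice was used as the error.

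Genes were filtered by filterByExpr by genotype in edgeR 4.0.16 (R 4.3.3) and scaled by TMM. Genotypes were compared by the quasi-likelihood F test, with all 12 mice and no covariate, and Benjamini-Hochberg adjustment over 18295 genes and a threshold of 0.05. Sex and its interaction with genotype were tested likewise by label. The alternatives comprised other scaling factors and filters, DESeq2 1.42.0, limma 3.58.1 (voom with sample quality weights), subsets by sex, and each of 12 mice left out. The males without mouse 702, the long genes (at least 8 kb of exon), the ratio of Scn8a to Scn10a, and further fits of the lists were added after seeing the data.

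CPM was calculated from library totals, and levels per kb used the union of annotated exons in GENCODE M21. Likeness was Pearson's r of log2(TMM-scaled CPM + 1) over genes with a mean of at least 5 CPM. Sequences and coordinates came from GENCODE M21. Named were all 9 members, 4 further sodium channel genes, list members past the threshold (at most 3 in each direction per list), the 2 most alike genes per member with a symbol other than Gm or Rik, Ptk2 and Nf2. Outside this rule, list genes that did not pass the threshold were also named, among them Nfasc, Ank3, Cntnap2, Ntrk3, Pvalb, Gldn and Kcna1. Members and lists were chosen with earlier results of these data known. Some genes of the sodium channel and partner lists, and 1 coding stretch, are not reported here, and the counts and medians of those lists leave these genes out whether or not they passed the threshold. Python 3.11.15 (pandas 2.3.3, matplotlib 3.10.9) served for the tables and plots.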

Additional observations from a re-analysis of the deposited data

Results flagged for a closer look

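The share of the TTX-resistant Scn10a and Scn11a in the summed alpha subunit level set 1 mouse of each genotype apart. Nf2 mouse 1048 had 73.2%, whereas the nearest of the other Nf2 mice had 76.1%. DKO mouse 886 had 66.9%, whereas the nearest of the other DKO mice had 71.9%. The gap to the nearest mouse was 0.71 of the range of the genotype for mouse 1048 and 0.68 for mouse 886, both above the critical value of Dixon's test for 6 samples (0.625). Among 20 groups examined in this way, about 1 is set apart by chance.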

How the results depend on the processing

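No paired analysis was possible because the numbers in the labels name single mice and are not shared between genotypes. In DKO against Nf2 mice, 172 genes passed the threshold, 831 by DESeq2, 521 by limma voom with sample quality weights (limma voom below), 57 in females, 2 in males and 9 in males without mouse 702, and 81 to 217 when 1 mouse was left out (under 115 without Nf2 mice 702, 884, 918 or 1049 or DKO mice 885, 914 or 917). Of the 9 genes, 0 passed, and 1, Scn8a, passed under upper-quartile scaling, without scaling factors, with at least 1 CPM in 6 mice, by DESeq2, by limma voom, and without Nf2 mouse 884 (0 to 1 over the mice left out). The sign of Scn1a, Scn2a, Scn3a, Scn8a, Scn9a, Scn11a, Scn2b and Scn4b was the same in all 23 alternatives. The log2 fold change of Scn10a, 0.00, was -0.0066 without a filter, -0.00053 in females, -0.0030 in males, -0.052 by limma voom and -0.077 to 0.057 over the mice left out. In males, and in males without mouse 702, Scn4a was at 0.16 and 0.25. Scn3b was at -0.0071 by limma voom, and in females Gldn was at -0.13 and Kcna1 at -0.068. Over the mice left out, Scn3b ran from -0.013 to 0.12, Gldn from -0.015 to 0.073 and Kcna1 from -0.030 to 0.26. Over the lists, 1 gene passed, 2 with upper-quartile scaling and 1 to 3 over the mice left out. In fits added for the lists after seeing the data, 11 passed by DESeq2, 9 by limma voom, 3 with at least 1 CPM in 6 mice, 2 without a filter, 3 in females, 0 in males and 0 in males without mouse 702. The median share of the TTX-resistant subunits, 74.1% over 12 mice, was 70.6% with the longest transcript as the length.

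By labelled sex, 3 genes passed, and 0 to 10 over the mice left out, of which the 10 came without mouse 702. The interaction was passed by 2 genes, and 2 to 6 over the mice left out. For male against female mice, the log2 difference over the mice left out was -0.021 to 0.11 for Scn1a, -0.031 to 0.079 for Scn9a and -0.16 to 0.022 for Scn4b. For the interaction it was -0.14 to 0.17 for Scn1a, -0.027 to 0.29 for Scn2a, -0.080 to 0.31 for Scn3a, -0.20 to 0.016 for Scn8a, -0.11 to 0.14 for Scn9a, -0.20 to 0.13 for Scn10a, -0.28 to 0.017 for Scn11a, -0.087 to 0.12 for Scn2b and -0.29 to 0.13 for Scn4b. The cause of these changes was not tested. The lowest count of the 9 genes in a mouse was 151 reads, for Scn3a.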
